A study of Mus musculus with 60 samples.

Results

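The liver of obese, vehicle-treated mice was compared with 5 other tissues of the same animals, to find which genes were restricted to it and which were depleted from it. The mice were male wild-type animals of the strain labelled C57BL/6 (C57BL/6J in the study's text), made obese on a high fat diet that began at 12 weeks of age and lasted 16 to 20 weeks. At 28 weeks they received daily intraperitoneal injections of sulforaphane (SFN, an isothiocyanate from cruciferous vegetables, 5 mg/kg) or of vehicle for 1 week. Poly(A) RNA was sequenced from liver, hypothalamus, inguinal white fat (iWAT), epididymal white fat (eWAT), interscapular brown fat (BAT) and skeletal muscle of 5 mice per treatment. The liver libraries of vehicle-treated mice are 5 of the 60 samples and were set against the 25 libraries of the other tissues from the same 5 vehicle-treated mice (mice 1 to 5). All 10 mice were obese, so no lean liver stands beside these values, and the 5 SFN-treated mice (mice 6 to 10) served as a second set of animals.

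Levels were in FPKM, fragments scaled to gene length and to a library size, which allows comparison between genes because it divides by length. Of 54532 genes in the table, 20043 had a mean of at least 0.5 FPKM in 1 or more of the 6 vehicle tissues and were tested. A gene was called liver-restricted where its mean in liver was at least 1 FPKM and at least 10-fold that of the highest other tissue, with 0.1 FPKM added to both. It was called liver-depleted where the lowest other tissue had at least 1 FPKM and at least 4-fold the level in liver, with the same addition. By this rule 789 genes were restricted (3.94% of those tested) and 227 were depleted (1.13%). These sets were chosen from the vehicle levels themselves, so their vehicle levels are given as a description with no test.

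The liver is made up mostly of hepatocytes, which secrete nearly all plasma proteins, build lipoproteins, make bile acids, detoxify ammonia and foreign compounds, and release glucose and ketone bodies to other tissues while using few ketone bodies themselves. Hepatocyte genes are switched on by a small group of transcription factors, among them HNF1, HNF4A, FOXA and C/EBP proteins. Sinusoidal endothelial cells, Kupffer cells (resident macrophages), stellate cells and bile duct cells make up the rest of the organ. In bulk tissue, fewer cells of a type and less RNA per cell cannot be told apart.

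The liver label was checked against albumin and transthyretin, a pair of abundant hepatocyte secretory products. Alb had 43012, 41647, 36691, 40769 and 34788 FPKM in the livers of mice 1 to 5, against 2.2, 2.828, 3.197, 1.933 and 2.372 FPKM in iWAT, the highest other tissue. Ttr had 8227, 7786, 7562, 7723 and 8135 FPKM in liver, against 10.3, 7.616, 0.5942, 7.162 and 2.048 FPKM in hypothalamus. Both genes were thus far above every other library in each of the 5 livers, and no liver library went against its label. Of the markers of fat tissue, Adipoq and Plin1 had no read in the 5 vehicle livers and Ucp1 and Lep had 1 read each. Other members of the same lists were measured in liver, with 145.9 FPKM for Elovl3, 79.87 FPKM for Cfd, 41.8 FPKM for Cidec and 19.08 FPKM for Cidea.

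Sequencing depth was alike across tissues, with 16480972 to 19768266 reads assigned to genes in liver and 15548064 to 19488624 in the other tissues. Because FPKM sums differed by tissue (a mean of 589606 in liver, against 214654 in hypothalamus and 630906 in skeletal muscle), the choice of scaling mattered. In vehicle-treated mice the library size behind the deposited FPKM was not the number of reads assigned to genes. Reads were 1.362 to 1.403 times that size in liver, 0.739 to 0.754 times in hypothalamus and 1.566 to 1.67 times in skeletal muscle. The deposited values thus already held a scaling that differed by tissue. With the deposited scaling, the median gene differed between liver and the other tissues by -0.146 (hypothalamus) to 0 (skeletal muscle) on the log2 scale. Rescaled so that each library summed to the same total (TPM), the median was -1.501 against hypothalamus, -1.161 against eWAT, -1.055 against iWAT, -0.267 against BAT and 0.005 against skeletal muscle. Labels gave no batch or date, so tissue and any processing batch cannot be told apart.

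The test for a gene asked whether liver differed in the same direction from each of the 5 other tissues (limma on log2(FPKM + 0.1), the largest of 5 p-values, adjusted by Benjamini-Hochberg over all 20043 genes, threshold 0.05). Across all tested genes 2736 (13.7%) were higher in liver than in every other tissue and 2073 (10.3%) were lower, against which every count of genes below is to be read. With TPM scaling this split was 1470 higher and 3716 lower. Against single tissues the shares higher and lower in liver were 36.5% and 44.5% (hypothalamus), 33.3% and 35.5% (iWAT), 33.4% and 37.2% (eWAT), 31.5% and 34.5% (BAT) and 35.9% and 36.3% (skeletal muscle). With TPM scaling 3349 genes were higher and 13708 lower than in hypothalamus, 2773 and 13157 than in iWAT, 2950 and 13126 than in eWAT, and 4746 and 8463 than in BAT.

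**Figure D1:**
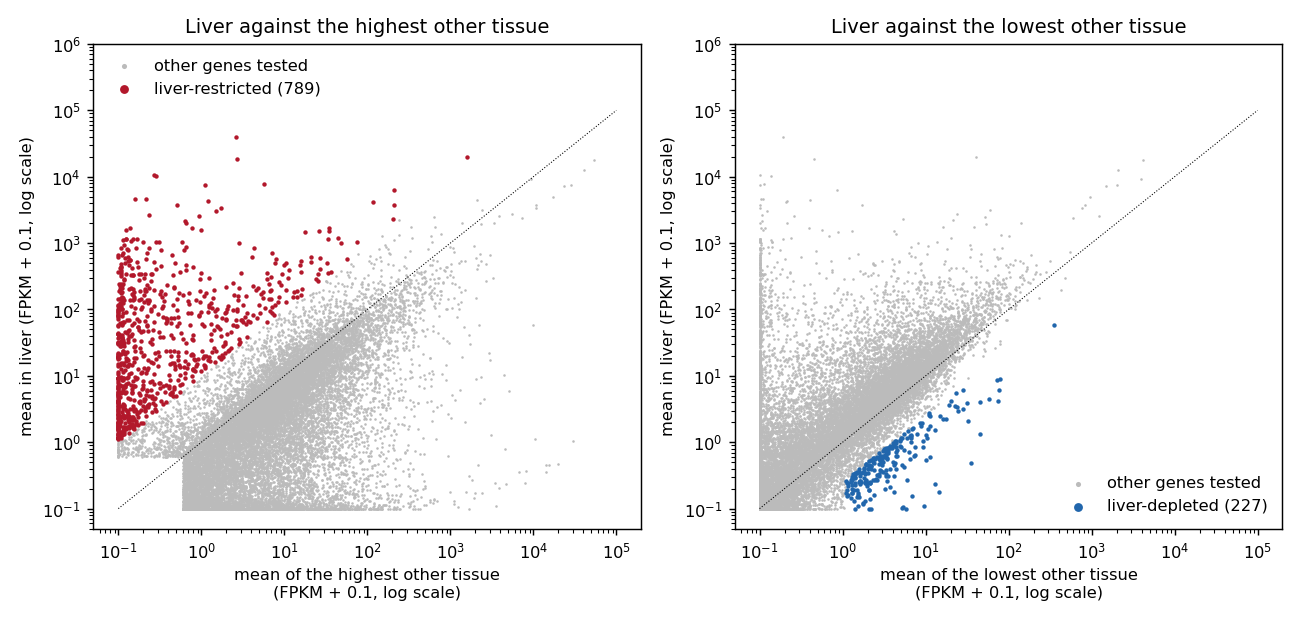
Mean level in liver (y axis) against the highest other tissue (left, x axis) or the lowest other tissue (right, x axis) in vehicle-treated mice, FPKM + 0.1 on log scales, 1 point per tested gene and n = 5 samples per tissue; the dotted line marks equal levels. The 789 liver-restricted genes (red) reach a mean of 39381 FPKM (Alb) and the 227 liver-depleted genes (blue) lie mostly below 1 FPKM in liver.

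The restricted genes were few but abundant. They took 43.1 to 46.7% of all FPKM in the 5 livers, against 0.0842 to 0.0928% in skeletal muscle, 0.265 to 0.355% in BAT, 0.603 to 0.66% in hypothalamus, 0.797 to 0.95% in iWAT and 0.76 to 1.04% in eWAT. The 15 most abundant protein-coding members alone made up 24.1 to 26.1%. Among them were Alb, Apoe, Apoa2, Fabp1, Apoa1, Ttr, Mup3, Apoc1, Mup20, Gc, Hpx, Cyp2e1, Rbp4 and Serpina3k: plasma carriers, apolipoproteins, urinary proteins, a serine protease inhibitor, a lipid-binding protein of the cytosol and a P450 enzyme. Alb led them with a mean of 39381 FPKM, and Rbp4 had 3793 FPKM. Only 43 of the 789 genes reached 1000 FPKM, 261 reached 100 FPKM, and 250 lay between 1 and 10 FPKM, so the set also holds many weakly expressed genes. Over all genes the 5 with the highest mean in liver were Alb, mt-Co1 and mt-Cytb of the mitochondrial genome (17723 and 12596 FPKM), Apoe and Apoa2.

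How strictly a gene was confined to liver varied. The median member had 34.29 FPKM in liver and a log2 ratio of 5.82 to the highest other tissue, against -1.37 over all tested genes. The ratio was at least 100-fold in 323 members and at least 1000-fold in 118, and 108 members had no read in any of the 25 other libraries. At the other end, 38 members exceeded 10 FPKM in another tissue and 5 exceeded 100 FPKM there: Apoe, Apoc1, Cyp2e1, Rbp4 and Mgst1. In 780 members the lowest liver library was above the highest of the 25 others, and 9 members overlapped. Over all tested genes 12.5% were separated in this way. The rule chose the members from these same libraries, so their separation largely follows from it. Among the 681 members with a read in another tissue, the highest other tissue was hypothalamus for 234 (34.4%), iWAT for 147, eWAT for 131, BAT for 91 and skeletal muscle for 78.

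By log2 ratio to the highest other tissue, with 0.1 FPKM added, the most restricted protein-coding genes were Fabp1 (15.27), Apoa1 (15.14), Gc (14.81), Mup20 (14.38), Alb (13.88), Fga (13.63), Fgg (13.58), Ambp (13.47), Ces3a (13.23) and Mat1a (13.2). Fabp1, the liver fatty acid-binding protein, had 10699, 10400, 9121, 10273 and 12167 FPKM in liver, against 0, 0.6653, 0.08515, 0.08617 and 0 FPKM in iWAT. In reads, that was 363360 in the 5 livers, against 15 in all 25 other libraries. Apoa1, the main protein of high-density lipoprotein, had 10989, 8978, 9772, 9996 and 11297 FPKM in liver, with 783360 reads there against 57 elsewhere. Gc, the vitamin D-binding protein of plasma, had 527289 reads in liver against 25 elsewhere. Fabp1 and Apoa1 varied little among the 5 livers, and all 3 genes were close to absent from the other tissues.

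Apoe, which clears lipoprotein remnants and is also made by macrophages and astrocytes, was restricted by a narrower margin. It had 20382, 16246, 20689, 20294 and 19973 FPKM in liver, against 1273, 1823, 1923, 1581 and 1385 FPKM in eWAT. Liver was more than 10-fold higher by its mean, yet eWAT still held a mean of 1597 FPKM. Cyp2e1, a cytochrome P450 that oxidises ethanol and acetone, was similar, with 4200, 3245, 4284, 4834 and 4137 FPKM in liver against 141.5, 43.77, 134.2, 141.7 and 122 FPKM in iWAT. The groups did not overlap for either gene.

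**Figure D2:**
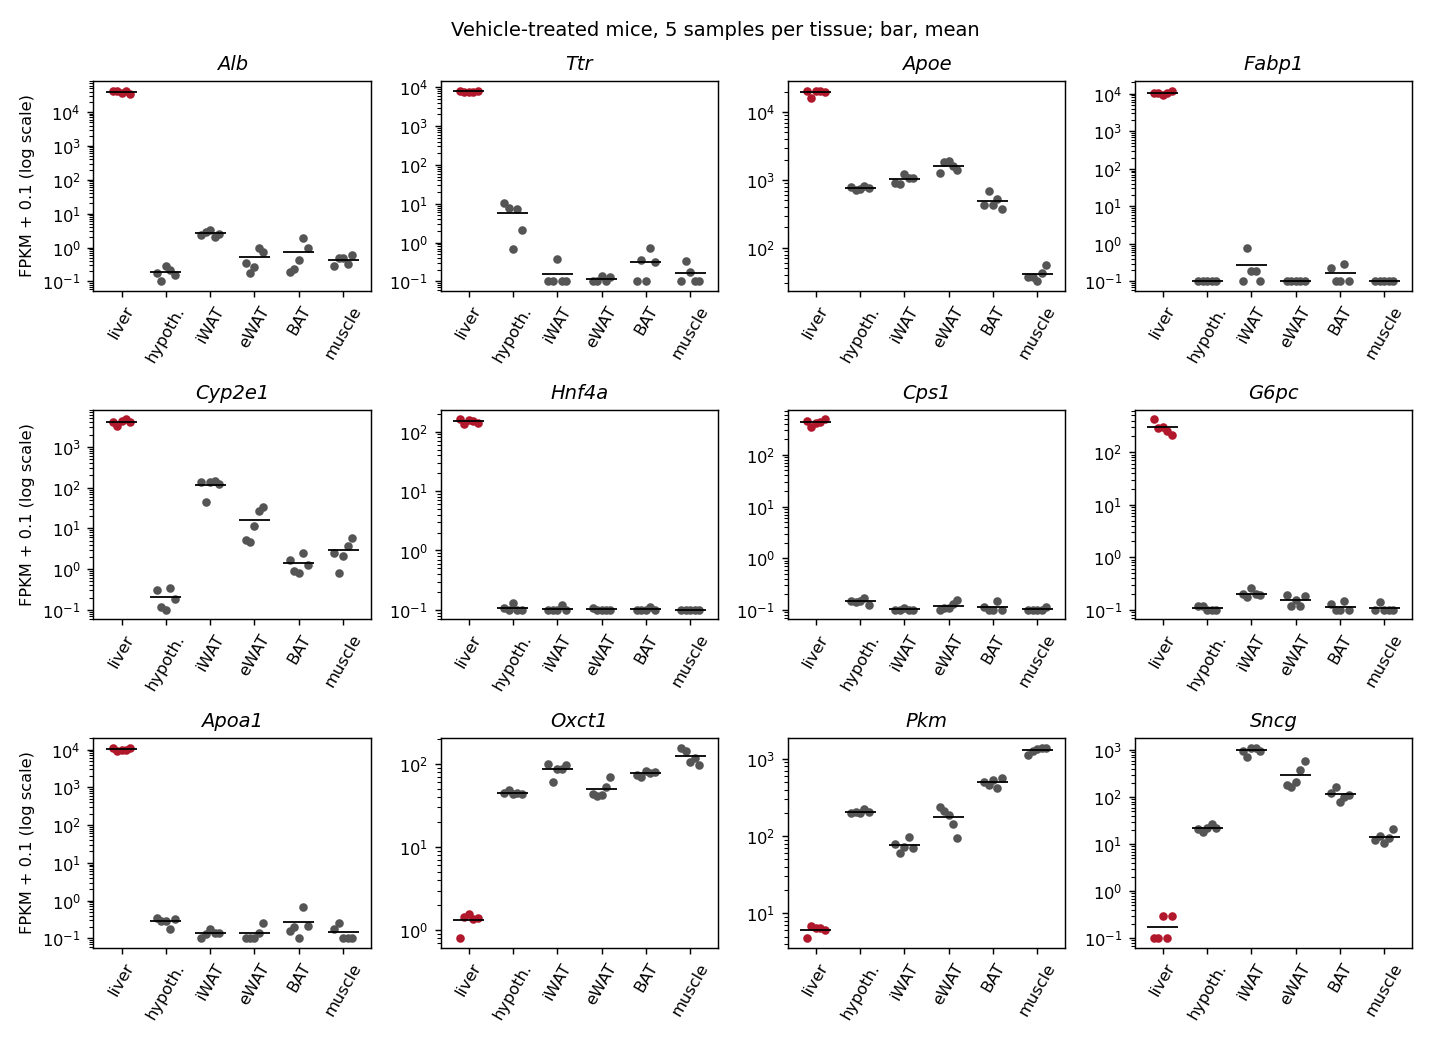
FPKM + 0.1 on a log axis for 12 named genes in each tissue of the vehicle-treated mice, liver first; each point is 1 sample (n = 5 per tissue) and each bar the mean. Liver stands above all other tissues for genes such as Alb (mean 39381 FPKM) and Hnf4a (149.4 FPKM), and below all of them for Oxct1 (1.212 FPKM), Pkm (6.005 FPKM) and Sncg.

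Start-site sequences of 5 genes are shown because the restricted and depleted sets differed in the motifs they held. Each is the 300 bases from 250 before to 50 after the RefSeq start in GRCm38.p6, 5′ to 3′ on the strand of the gene. Capitals mark matches to the HNF1 core motif GTTAAT, the C/EBP motif TTGCNNAA, the TATA motif TATAAA or the GC box GGGCGG, searched on both strands. The first 4 genes are liver-restricted and Pkm is liver-depleted; they were picked after their matches were seen.
Alb (chr5:90460620-90460919, plus strand): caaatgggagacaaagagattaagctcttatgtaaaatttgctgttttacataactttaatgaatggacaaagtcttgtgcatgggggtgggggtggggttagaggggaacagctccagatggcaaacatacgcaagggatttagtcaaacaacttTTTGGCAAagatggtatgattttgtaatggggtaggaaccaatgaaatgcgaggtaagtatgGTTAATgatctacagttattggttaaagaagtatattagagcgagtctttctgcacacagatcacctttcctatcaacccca
Fabp1 (chr6:71199629-71199928, plus strand): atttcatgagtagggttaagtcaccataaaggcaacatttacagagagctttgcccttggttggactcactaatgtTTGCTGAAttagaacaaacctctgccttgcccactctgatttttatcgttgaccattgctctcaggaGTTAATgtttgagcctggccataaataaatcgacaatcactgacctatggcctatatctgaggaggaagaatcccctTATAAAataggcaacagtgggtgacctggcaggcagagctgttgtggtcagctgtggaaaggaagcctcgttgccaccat
Gc (chr5:89457849-89458148, minus strand): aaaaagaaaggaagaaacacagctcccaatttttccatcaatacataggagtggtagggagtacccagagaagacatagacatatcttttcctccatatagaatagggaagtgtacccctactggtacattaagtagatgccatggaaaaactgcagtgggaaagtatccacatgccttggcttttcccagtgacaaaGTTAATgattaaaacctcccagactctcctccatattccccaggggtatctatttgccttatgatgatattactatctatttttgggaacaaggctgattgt
Fgb (chr3:83049814-83050113, minus strand): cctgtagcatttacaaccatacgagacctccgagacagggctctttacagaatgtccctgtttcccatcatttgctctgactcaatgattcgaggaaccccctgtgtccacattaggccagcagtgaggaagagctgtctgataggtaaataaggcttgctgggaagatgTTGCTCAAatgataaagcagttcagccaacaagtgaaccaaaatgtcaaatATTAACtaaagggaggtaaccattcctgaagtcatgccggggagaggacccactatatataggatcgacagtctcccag
Pkm (chr9:59656326-59656625, plus strand): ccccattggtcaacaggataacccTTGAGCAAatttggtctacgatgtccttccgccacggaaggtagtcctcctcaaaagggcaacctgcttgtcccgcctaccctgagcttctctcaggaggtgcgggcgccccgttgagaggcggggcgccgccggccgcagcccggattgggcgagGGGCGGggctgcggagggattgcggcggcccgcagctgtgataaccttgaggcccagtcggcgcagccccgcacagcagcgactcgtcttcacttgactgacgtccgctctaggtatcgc

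The HNF1 core began at -32 in Alb, -107 in Fabp1 and -52 in Gc, and at -29 on the reverse strand in Fgb, counted from the start. A C/EBP match began at -94 on the reverse strand in Alb, and at -174 in Fabp1 and -80 in Fgb. A TATA motif began at -30 in Fabp1. Pkm had no HNF1 core, a GC box at -70 and a C/EBP match at -226 on the reverse strand. A promoter was matched by symbol for 440 of the 568 restricted protein-coding genes, 163 of the 220 depleted ones and 12117 of the 15585 tested.

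The HNF1 core was present in 16.8% of restricted promoters, against 3.68% of depleted and 4.56% of all tested promoters, and 7.2% of all promoters in the reference held it. An HNF4 motif (CAAAGTCCA) was present in 3.18% of restricted promoters and 0.446% of tested ones, and in 0 of 163 depleted ones, which allows a share of up to 1.84%. The TGTTTAC motif of FOXA proteins was in 5.23% of restricted, 1.23% of depleted and 2.59% of tested promoters. C/EBP matches were in 18.6%, 6.75% and 8.77% in the same order, and TATA motifs in 20.9%, 11% and 8.08%. In all promoters of the reference the shares were 0.477% for HNF4, 3.55% for FOXA, 10.8% for C/EBP and 14.2% for TATA. GC boxes ran the other way, in 24.1% of restricted promoters against 65% of depleted and 60.3% of tested ones (35.9% of all). Restricted promoters were also poorer in CpG, with a median of 4 CpG sites and 50% GC, against 21 sites and 64% GC in depleted and 19 sites and 60.3% GC in tested promoters. A match in these windows is a description of letters and was not tested as a binding site.

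Genes of the secretory function of liver stood highest almost throughout. Of 20 plasma carrier genes tested, 20 were higher in liver than in every other tissue and 17 were restricted (median log2 ratio 10.38). Ahsg (fetuin-A, an inhibitor of mineral deposition) had 3021 FPKM, Ambp (precursor of a heme-binding protein and of bikunin) 2627 FPKM, and Apoh 1717 FPKM. The 3 that were higher but not restricted were Hp, Orm1 and Itih3. Hp, haptoglobin, which binds free haemoglobin, averaged 4468 FPKM in liver against 2069 FPKM in iWAT, and its call was lost with TPM scaling. Without mouse 2 it was not called against iWAT either (adjusted p = 0.0866, limma). Rbp4, the retinol carrier, had 3793 FPKM in liver against 210.3 FPKM in iWAT.

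The apolipoprotein and lipoprotein genes followed the same pattern, with 20 of 20 higher in liver and 17 restricted (median log2 ratio 7.37). Apoa2 had 18325 FPKM in liver against 2.58 FPKM in hypothalamus, and Apob, the structural protein of very-low-density lipoprotein, had 432.2 FPKM in liver and under 0.1 FPKM elsewhere. Mttp, which loads lipid onto apolipoprotein B, had 76.31 FPKM in liver against 3.237 FPKM in hypothalamus. Scarb1, the receptor for high-density lipoprotein, had 30.16 FPKM in liver against 13.71 FPKM in eWAT, a direction that turned round with TPM scaling.

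Of 22 coagulation genes, 21 were higher in liver and 20 were restricted (median log2 ratio 9.95). The fibrinogen chains had 1681 FPKM (Fgg), 1584 FPKM (Fga) and 1171 FPKM (Fgb) in liver, plasminogen (Plg) 624.4 FPKM and prothrombin (F2) 547.6 FPKM, with under 0.1 FPKM for each in any other tissue. F7 was higher in liver with 66.24 FPKM against 34.56 FPKM in eWAT, except with TPM scaling, where the direction reversed. The one gene that did not pass was Pros1, protein S, with 20.28 FPKM in liver against 33.99 FPKM in eWAT.

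The complement system was split. Of 21 genes, 18 were higher in liver but only 10 were restricted, and 11 were higher with TPM scaling. The terminal components C8a (210 FPKM) and C9 (211.8 FPKM) and the lectins Mbl2 (440.4 FPKM) and Mbl1 (172.2 FPKM) were under 0.5 FPKM elsewhere. By contrast C3, the hub of the cascade, had 1267 FPKM in liver against 585 FPKM in eWAT, and Cfb 4.868 against 2.298 FPKM in eWAT; the direction of both reversed with TPM scaling. C1qa, C1qb and Cfd did not pass: C1qa and C1qb, made by macrophages, had 49.97 and 44.88 FPKM in liver against 521.9 and 711.9 FPKM in eWAT, and Cfd, the adipocyte protease adipsin, had 79.87 FPKM in liver against 739.7 FPKM in iWAT.

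Genes that detoxify ammonia were higher in liver throughout. All 14 urea cycle and ammonia genes tested were higher in liver and 11 were restricted (median log2 ratio 3.96). Cps1, which commits ammonia to the urea cycle, had 451, 351.3, 416.7, 430.9 and 493.6 FPKM in liver, against a mean of 0.04609 FPKM in hypothalamus. Ass1 had 1526 FPKM against 34.42 FPKM in hypothalamus, Otc 147.3 FPKM and Arg1 714.9 FPKM. Glul, glutamine synthetase, had 618 FPKM in liver against 286.2 FPKM in hypothalamus and was below hypothalamus with TPM scaling.

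Amino acid breakdown was as uniform, with 28 of 28 genes higher and 25 restricted (median log2 ratio 9.16). Gnmt, which methylates glycine, had 1573 FPKM, Mat1a, which makes S-adenosylmethionine, 1162 FPKM, and Hpd of tyrosine breakdown 1026 FPKM. Bhmt had 928.8 FPKM and Tat 705 FPKM. The genes higher but not restricted were Fah, Aldh4a1 and Gstz1. Gstz1 had 210.6 FPKM in liver against 121.5 FPKM in iWAT, a direction that reversed with TPM scaling.

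All 17 bile acid genes were higher in liver and 13 were restricted (median log2 ratio 8.31). Cyp7a1, the rate-limiting enzyme of bile acid synthesis, had 27.31, 15.82, 11.99, 11.13 and 37.99 FPKM in the 5 livers and no read in the 25 other libraries, at least 1603-fold higher than the limit that 3 reads over those libraries allow (0.013 FPKM). It ranged more than 3-fold among the mice. Cyp8b1, which makes cholic acid, had 408.3 FPKM, the conjugating enzymes Slc27a5 and Baat 454.7 and 206.2 FPKM, the uptake carrier Slc10a1 341.3 FPKM and the canalicular export pump Abcb11 127.3 FPKM. Not restricted were Cyp27a1, Amacr, Abcb4 and Hsd3b7, each of which had its next highest level in skeletal muscle or BAT.

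Of 23 P450 genes for drugs, steroids and fatty acids, 22 were higher in liver and 21 were restricted (median log2 ratio 10.13). Cyp2d26 had 850.6 FPKM, Cyp2f2 432.2 FPKM, Cyp3a11 222 FPKM and Cyp1a2 153.1 FPKM. Cyp2d10 had 669.3 FPKM and no read elsewhere, at least 20319-fold over the 3-read limit. Cyp2b10 was the exception, with 0.3005 FPKM in liver against 2.343 FPKM in BAT. Of 20 conjugating enzymes, 20 were higher and 14 restricted, among them Gsta3 (569.7 FPKM) and Ugt2b5 (502 FPKM), while Gstp1 (1343 against 239.3 FPKM in skeletal muscle), Gstm1, Sult1a1, Tpmt and Nat8 were higher without being restricted. Many of these genes have near-identical copies (Cyp2d, Cyp2c, Cyp4a, Ugt1a and Mup genes and their pseudogenes), and the division of reads among copies is uncertain.

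Glucose genes were split. Of 16 genes 11 were higher in liver and 10 restricted (median log2 ratio 5.56). G6pc, which frees glucose for release, had 427.1, 291.2, 297.6, 249.5 and 215.1 FPKM in liver, against 0.1046 FPKM on average in iWAT. Khk (543.1 FPKM) and Tkfc (495.8 FPKM), enzymes of fructose breakdown, were both restricted. Pck1, of the same glucose-making route as G6pc, was not called, with 862.3 FPKM in liver against 979.3 FPKM in BAT. Slc37a4, Pygl, Pfkfb1 and Pgm1 were not called either.

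Ketone body synthesis showed the same kind of division. Of 5 genes, 3 were higher in liver and 2 restricted. Bdh1 had 152.2 FPKM against 14.05 FPKM in skeletal muscle. Acat1, which acts at the start of the route, had 234.3 FPKM in liver against 275.3 FPKM in BAT, and the exporter Slc16a1 had 19.72 FPKM against 114.6 FPKM in BAT.

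Transcription factors of hepatocytes were restricted at lower levels than the secreted proteins. Of 20 tested, 16 were higher in liver and 13 restricted (median log2 ratio 4.46). Hnf4a, an orphan nuclear receptor, had 163.4, 133.7, 156.8, 153.6 and 139.5 FPKM in liver, with 44789 reads there against 8 in the 25 other libraries. Creb3l3 had 161.5 FPKM, Nr1h4 (the bile acid receptor FXR) 88.12 FPKM, Nr1i2 (PXR) 48.64 FPKM, Foxa3 27.84 FPKM, Foxa2 23.21 FPKM and Nr1i3 (CAR) 17.9 FPKM. Cebpa, Cebpb and Ppara were not called, and BAT was above liver for each: Cebpa had 331.1 FPKM in liver against 366.4 FPKM in BAT, and Ppara 29.97 FPKM against 41.96 FPKM in BAT.

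Hormones and growth factors of liver were a mixed group, with 17 of 22 higher (13 with TPM scaling) and 10 restricted (median log2 ratio 2.37). Hamp, the iron hormone hepcidin, had 662.2 FPKM in liver against 0.341 FPKM in iWAT, Lect2 233.4 FPKM, Leap2, an antagonist of the ghrelin receptor, 152.2 FPKM, and Inhbe 38 FPKM. Fgf21 had 18.09 FPKM against 1.628 FPKM in iWAT. Agt, angiotensinogen, had 535.1 FPKM against 104.6 FPKM in hypothalamus and lost its call with TPM scaling. Igf1 had 52.76 FPKM against 25.01 FPKM in eWAT, with the direction reversed under TPM scaling. Igfals, Ghr, Angptl4, Angptl8 and Gdf15 did not pass: Igfals had 54.31 FPKM in liver against 53.87 FPKM in iWAT (below iWAT with TPM scaling), and Angptl4 46.47 FPKM against 230.2 FPKM in iWAT. Angptl8 had 109.1 FPKM in liver against 58.94 FPKM in iWAT and passed against iWAT with the mouse as a replicate block (adjusted p = 0.0252, limma).

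Within the liver lobule, genes of both ends were measured. Of 15 pericentral genes, which lie near the central vein, 12 were higher in liver (10 with TPM scaling) and 7 restricted, and of 14 periportal genes 11 were higher and 11 restricted. Slc1a2, Slc1a4 and Axin2 of the pericentral list were not called, with hypothalamus or BAT above liver. Lgr5 was low, with 1.054 FPKM in liver against 0.4462 FPKM in hypothalamus, and its direction reversed with TPM scaling.

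Of 28 lipid droplet and fatty acid genes, 24 had a higher mean in an adipose tissue than in liver. Their median log2 ratio to the highest other tissue was -2.89. Over all tested genes it was -1.37, so a higher mean elsewhere was common. By the test 4 of the 28 were higher in liver than in every other tissue and 1 was lower. With TPM scaling 3 were higher and 3 lower, as Srebf1 lost its call and Adipoq and Plin1 became lower. Besides Fabp1, the genes higher were Fabp2 (244.5 FPKM), Cideb (61.22 FPKM, a lipid droplet protein of hepatocytes) and Srebf1 (120.7 FPKM against 63.9 FPKM in BAT). Plin2 had 360.3 FPKM in liver against 422.3 FPKM in eWAT, and Scd1, stearoyl-CoA desaturase, 2735 FPKM against 5586 FPKM in BAT. Scd2, its relative, was lower in liver than in every other tissue, with 1.645 FPKM in liver against 8.809 FPKM in skeletal muscle, the lowest other tissue. Cidec and Cidea, which fuse lipid droplets, had 41.8 and 19.08 FPKM in liver, against 1685 FPKM in iWAT and 1376 FPKM in BAT.

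**Figure D3:**
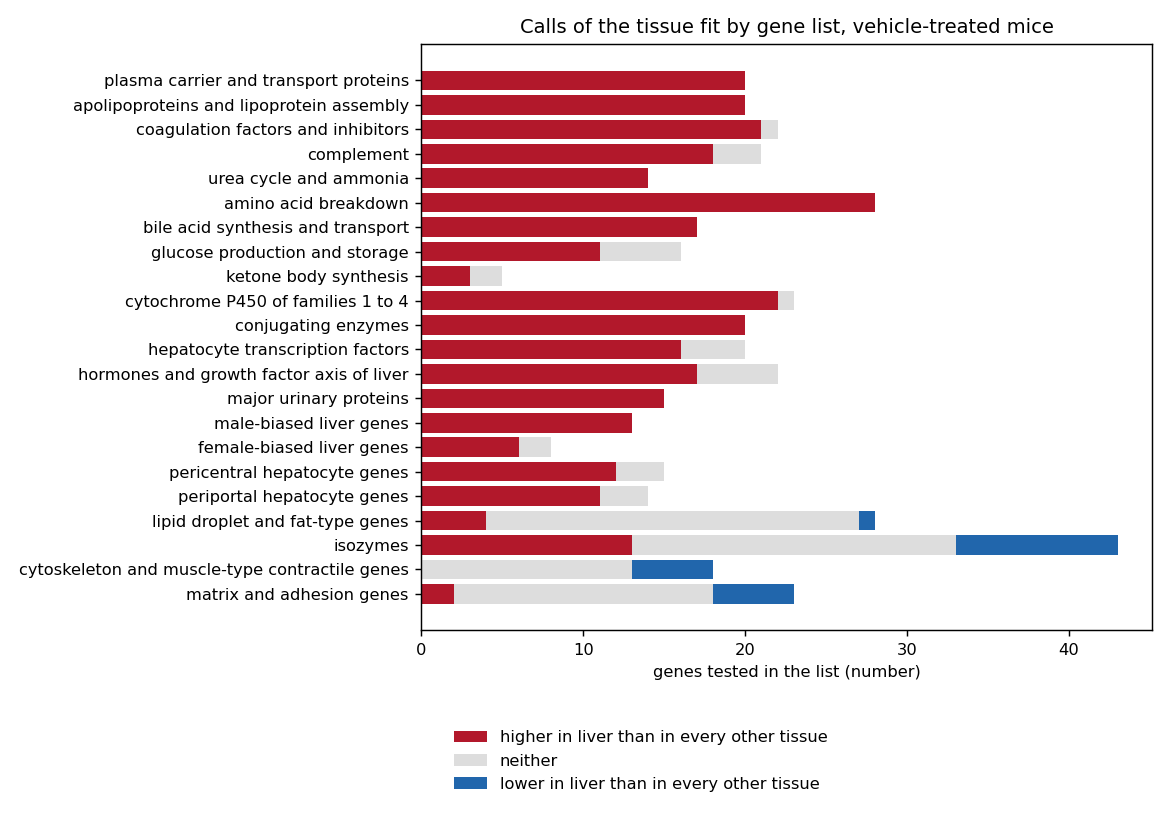
Number of tested genes of each list (x axis) that were higher in liver than in every other tissue (red), lower (blue) or neither (grey) in vehicle-treated mice, by limma with adjusted p at a threshold of 0.05. Plasma carriers (20 of 20) and amino acid breakdown (28 of 28) are wholly red, while 5 of 18 cytoskeletal genes are blue and the rest grey; over all tested genes 13.7% were higher and 10.3% lower.

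Enzymes with liver and non-liver forms showed the sharpest contrast between restricted and depleted genes. Of 43 such genes, 13 were higher in liver and 10 lower. Pyruvate kinase is an example: Pklr, the liver and red cell form, had 189.8 FPKM in liver and 0.08367 FPKM in hypothalamus. Pkm, the form of muscle and most other cells, had 4.633, 6.752, 6.342, 6.31 and 5.987 FPKM in liver, against 79.73, 60.81, 73.02, 95.95 and 69.41 FPKM in iWAT, the lowest other tissue. No liver library reached any library of iWAT.

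Other forms typical of muscle and brain were low as well. Aldoa, the muscle aldolase, had 56.88, 58.31, 56.68, 56.64 and 60.24 FPKM in liver, against 376.3, 338.5, 324.5, 345.2 and 378.4 FPKM in eWAT. Aldoa was the only depleted gene with a liver mean of 10 FPKM or more. Hk1 had 0.4884, 0.4927, 0.7396, 0.6643 and 0.8773 FPKM in liver, against 1.732, 1.948, 1.661, 1.446 and 1.542 FPKM in skeletal muscle, the lowest other tissue. For both genes every liver library was below every library of that tissue.

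Other pairs had the same order in liver by FPKM as Pklr and Pkm. Fbp1 had 1023 FPKM and Fbp2 0.1312 FPKM, Mat1a 1162 FPKM and Mat2a 26.67 FPKM, and Arg1 714.9 FPKM and Arg2 0.184 FPKM. Slc2a2, the liver glucose transporter, had 102.1 FPKM, while Slc2a1 and Slc2a4 had 3.511 and 0.4575 FPKM. Cpt1a, which admits fatty acids to mitochondria, had 171.6 FPKM and Cpt1b 0.2852 FPKM. Lipc, hepatic lipase, had 77.3 FPKM and Lpl 2.586 FPKM. Genes called lower in liver than in every other tissue included Aldoa, Mat2a, Pkm, Ldhb, Oxct1, Gys1, Hk1, Pfkp and Fabp3. Gys2 and Cpt1a were not restricted, and Pygl, with 124.4 FPKM in liver against 104 FPKM in BAT, was not called.

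**Figure D4:**
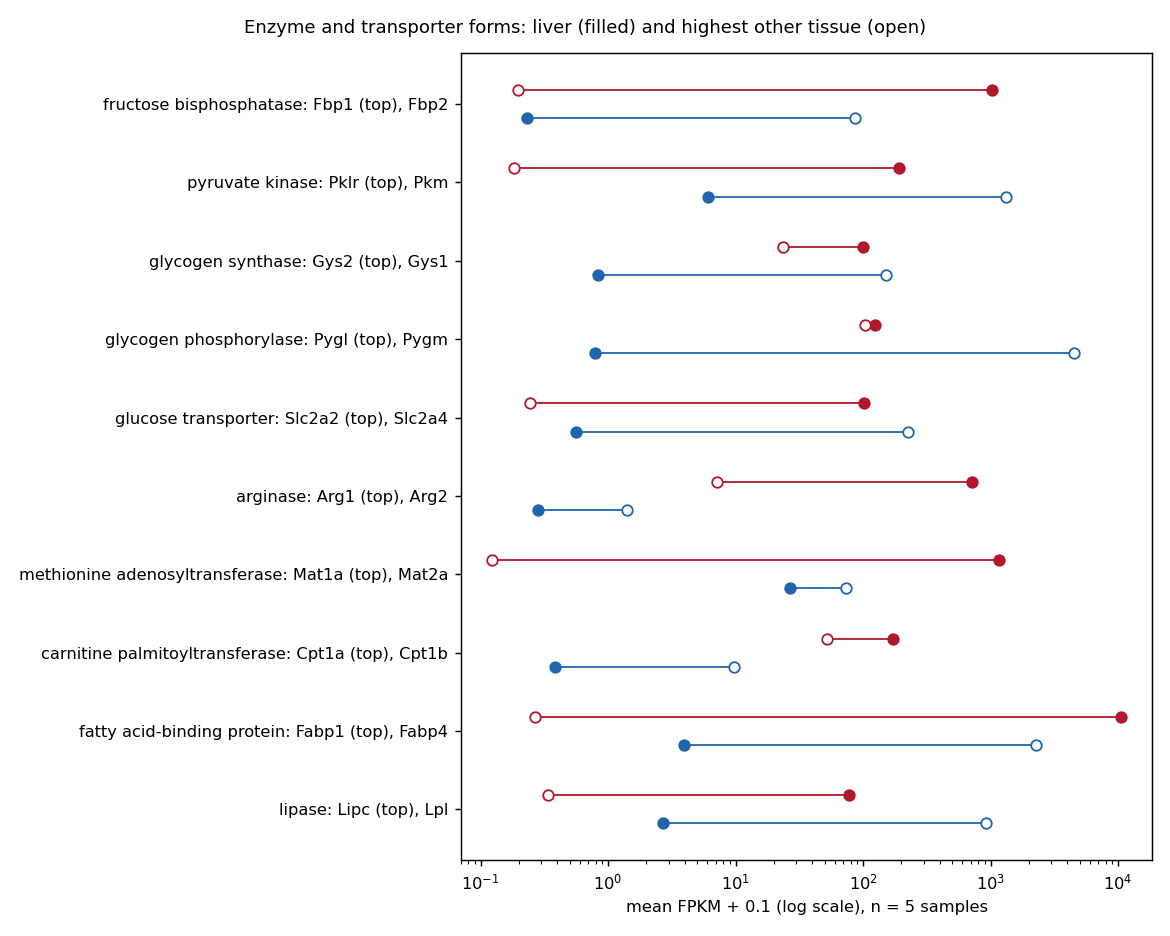
Mean FPKM + 0.1 on a log axis in vehicle-treated mice (n = 5 samples per tissue) for 10 pairs of related genes; filled points are liver, open points the highest other tissue, red the form that is more abundant in liver and blue its partner. Red lines mostly run far to the left of liver, as for Mat1a (1162 FPKM in liver), and blue lines to the right, as for Pkm (6.005 FPKM in liver); Pygl is the exception with nearly equal levels.

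Oxct1, succinyl-CoA:3-ketoacid transferase, lets tissues burn the ketone bodies that liver makes. It had 0.698, 1.341, 1.455, 1.257 and 1.311 FPKM in liver, against 45.07, 48.06, 43.75, 44.51 and 42.99 FPKM in hypothalamus and a mean of 124 FPKM in skeletal muscle. It was depleted, with every liver library far below both tissues.

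The depleted set was smaller and lower in level than the restricted set. Its median member had 0.361 FPKM in liver and 3.01 FPKM in the lowest other tissue (log2 ratio -2.61), 183 of the 227 were under 1 FPKM in liver, and 4 had no read there. The lowest other tissue was skeletal muscle for 65, eWAT for 64, hypothalamus for 45, BAT for 33 and iWAT for 20. In 224 members the highest liver library was below the lowest of the 25 others, which was true of 8.34% of all tested genes. This too largely follows from the rule, which used the same libraries. The rule asks for a mean of at least 1 FPKM in each of the 5 other tissues. A mean can rest on 1 library, so wide expression does not follow for every member. For Eef1a2 the iWAT mean of 4.031 FPKM held 1 library at 18.68 FPKM.

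Ppp1r1a, an inhibitor of protein phosphatase 1, had 0, 0.05277, 0, 0 and 0 FPKM in liver (1 read), against 7.049, 7.308, 7.394, 11.48 and 14.23 FPKM in eWAT, the lowest other tissue. Car4, the membrane-bound carbonic anhydrase of capillaries, had no read in liver and 6.556, 9.312, 4.76, 4.838 and 3.368 FPKM in skeletal muscle, at least 236-fold more than the 3-read limit. Sncg, gamma-synuclein, had 0, 0, 0.1975, 0 and 0.1931 FPKM in liver, against 11.95, 14.75, 10.46, 13.17 and 21.11 FPKM in skeletal muscle. For each of these 3 genes every liver library was below every library of that tissue.

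Ly6c1, a surface marker of endothelial cells outside the liver sinusoid and of monocytes, had 0.1988, 0.1233, 0.1003, 0.2018 and 0.04905 FPKM in liver, against 12.59, 14.27, 13.36, 11.98 and 12.47 FPKM in hypothalamus. Rgcc, a cell cycle regulator, had 0.05478 FPKM in liver against 6.694 FPKM in hypothalamus. Kcna5 (a potassium channel) and Higd1b had no read in liver, at least 126-fold and 34.4-fold below their lowest other tissue. The 15 depleted genes of largest ratio also held Timp4, Apod, Sema7a, Tspan13, Tppp3 and Eef1a2.

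Some depleted genes were abundant in all 5 other tissues, and the following were chosen after their values were seen. Slc25a4, the ATP/ADP carrier of muscle and brain, had 3.081, 5.155, 4.505, 4.422 and 4.859 FPKM in liver, against 58.53, 54.62, 58.06, 58.85 and 63.99 FPKM in eWAT. Gpx3, the plasma glutathione peroxidase, had 8.547 FPKM in liver against 71.89 FPKM in hypothalamus. Sparcl1 had 4.041 FPKM against 74.45 FPKM in eWAT, Reep5 8.937 FPKM against 79.57 FPKM in skeletal muscle, and Cryab, a small heat shock protein, 3.882 FPKM against 44.59 FPKM in BAT. All 5 genes were at least 4-fold lower in liver than in the tissue next above it.

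Of the depleted genes, Eef1a2 and Pvalb were not called, since the largest of their 5 p-values did not pass after adjustment. The rule chose both genes from these same values. Passing against a single tissue therefore supports nothing, and the p-values only show where the call failed. Eef1a2 had 0.03999, 0.0992, 0, 0.2436 and 0 FPKM in liver, against 0.2697, 0.1589, 0.2711, 18.68 and 0.771 FPKM in iWAT. It differed from iWAT alone (adjusted p = 0.0497, limma) but not across all 5 tissues (adjusted p = 0.132, limma). Pvalb, a calcium buffer of fast muscle, had 0.08006, 0, 0, 1.219 and 0 FPKM in liver, against 1.517, 1.513, 1.532, 4.507 and 5.975 FPKM in eWAT. It differed from eWAT alone (adjusted p = 0.0381, limma) but not across all 5 tissues (adjusted p = 0.104, limma). In liver the sample of mouse 4 stood above the other 4. The single-tissue calls were lost without mouse 1, 3, 4 or 5 for Eef1a2 (adjusted p = 0.0507 to 0.159, limma) and without mouse 1, 2, 3 or 5 for Pvalb (adjusted p = 0.0537 to 0.144, limma). In BAT, Pvalb ran from 0 to 449.9 FPKM. The summed level of 6 muscle markers was 0.619 to 9.49 FPKM in liver, against 15.9 to 1347 FPKM in iWAT and 3.44 to 3145 FPKM in BAT, and its part in these values was not tested.

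Cytoskeletal genes were measured in liver at levels below at least 1 other tissue. All 18 cytoskeletal genes had a higher mean in some other tissue than in liver. So did most tested genes, with a median log2 ratio to the highest other tissue of -1.37, against -3.29 for the 18. Of the 18, 5 were lower in liver than in every other tissue: Tuba1a, Actg1, Flna, Myl9 and Acta2. With TMM scaling 4 were lower and with TPM scaling 9. Tuba1a, an alpha-tubulin, had 2.311, 3.402, 4.06, 2.862 and 4.973 FPKM in liver, against 18.1, 16.25, 17.35, 20.25 and 22.93 FPKM in skeletal muscle. Actb had 335.6 FPKM in liver against 146.8 FPKM in skeletal muscle and 1004 FPKM in eWAT, so it was not called. Of 23 matrix genes 2 were higher and 5 lower, or 1 and 12 with TPM scaling. Vtn, vitronectin, a plasma protein as well as a matrix protein, had 1502 FPKM in liver against 25.79 FPKM in hypothalamus and was restricted. Sparc had 29.73 FPKM in liver against 77.86 FPKM in skeletal muscle, the lowest other tissue, while Fn1, higher in liver with 172.4 FPKM against 93.95 FPKM in eWAT, reversed with TPM scaling.

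Other liver cell types were visible through a few genes each. Of 8 Kupffer cell markers 3 were higher in liver: Clec4f, a lectin of these cells in the mouse, with 33.05 FPKM against 0.007225 FPKM in hypothalamus, C6 and Slc40a1. The others, such as Cd5l (36.33 FPKM against 42.19 FPKM in eWAT), were not. C6, the most abundant of the 8 with 66.49 FPKM, also stands in the complement and male-biased lists. Its call was lost with TPM scaling. Of 8 sinusoidal endothelial markers 5 were higher, led by Clec4g (16.17 FPKM against 0.1456 FPKM in iWAT). Of 8 stellate cell markers 3 were higher, among them Lrat, which stores retinol as ester (6.088 FPKM against 0.148 FPKM in hypothalamus), and Colec11 (35.14 FPKM). Of 6 bile duct markers Epcam (2.135 FPKM) and Cldn7 were higher, and Krt19 had 2.27 FPKM in liver against 10.95 FPKM in eWAT. With TPM scaling the counts of markers higher in liver were 2 for Kupffer cells, 2 for sinusoidal cells, 2 for stellate cells and 0 for bile duct cells.

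Markers of other tissues did not pass as higher in liver, apart from Elovl3 of the brown fat list (145.9 FPKM against 17.15 FPKM in BAT), which male livers also make, and Alas2 of the red cell list (52.4 FPKM against 6.168 FPKM in BAT). All 6 adipocyte, 6 muscle, 4 neuron, 4 oligodendrocyte and 6 lymphocyte markers had a higher mean in another tissue than in liver. So did most tested genes, with a median log2 ratio to the highest other tissue of -1.37. The medians of these lists ran from -14.91 for muscle to -4.3 for lymphocytes. In liver the summed markers were 38.2 to 272 FPKM for adipocytes, 1.24 to 1.46 FPKM for neurons, 0.873 to 1.15 FPKM for oligodendrocytes and 1.69 to 2.78 FPKM for lymphocytes. The adipocyte sum was carried by Cfd and Cidec.

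Restricted genes were counted by family and by position. Of 69 tested Cyp genes, 41 were restricted and 53 higher in liver, with none depleted. Restricted were also 14 of 18 Apo genes, 16 of 18 Mup genes, 15 of 34 Serpin genes, 9 of 14 Ces genes, 12 of 17 Ugt genes and 32 of 319 Slc genes. The Apo family also held 1 depleted gene, Apod, and the Slc family held 7. Of 568 restricted protein-coding genes, 220 (38.7%) had a restricted gene as next protein-coding neighbour, against 6.63% of all 15585 tested protein-coding genes, and 56 lay in 7 runs of 5 or more.

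The longest run held 14 genes, Mup9 to Mup21, at chr4:60418046-62150863 (GRCm38). A run of 10 Cyp2c genes lay at chr19:39007019-40187333 from Cyp2c55 to Cyp2c70, and 9 serpin genes at chr12:103614786-104044443 from Serpina10 to Serpina12. Others were 6 genes from Rdh9 to Hsd17b6 on chromosome 10, 6 Cyp4a genes on chromosome 4, 6 genes from Cyp2b9 to Cyp2f2 on chromosome 7 and 5 Ugt2b genes on chromosome 5. Near-identical copies within the Mup run share reads, so single values there are uncertain.

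Of the 789 restricted genes 221 were not protein-coding: 70 lincRNAs, 48 antisense genes, 28 processed and 25 unprocessed pseudogenes and 11 miRNA genes among them. The most abundant were Gm27463 (609.9 FPKM), BC024386 (346.3 FPKM), Cyp2d37-ps (101.5 FPKM), Mup-ps16 (82.7 FPKM) and C730036E19Rik (70.45 FPKM). Gm27463 rested on only 2131 reads in the 5 livers, a high FPKM for a short transcript. No source states whether strand was used in counting, so antisense genes cannot be told apart from their sense partners.

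The thresholds cut through a continuous range. Just inside the restricted set were Aldh1a1 (10.1-fold), Trf (10.3-fold) and Zfp750 (10.3-fold), and just outside Dsg1c (9.85-fold), Tmem86b (9.83-fold) and C1rl (9.82-fold). For depletion, Mturn (4.01-fold), Gpr153 (4.02-fold) and Atp2a3 (4.03-fold) lay just inside and Ralgds (3.97-fold), Rasd1 (3.95-fold) and Osbpl5 (3.93-fold) just outside.

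Among the 5 vehicle livers the restricted genes varied more than other genes. Of genes with at least 10 FPKM, the median coefficient of variation was 12.2% in 539 restricted genes and 7.88% in all 4341 genes, and it exceeded 50% in 27 restricted genes. Several of the most variable genes were ones that differ between male and female mouse livers under growth hormone, although all animals were male. Hsd3b5, a male-biased steroid dehydrogenase, had 3.174, 0.8008, 14.77, 54.5 and 33.03 FPKM in mice 1 to 5, a 68.1-fold range. Mup7 had 89.79, 9.473, 241.2, 923.4 and 674.2 FPKM. Serpina1e had 444.3, 278.4, 914.4, 1466 and 1216 FPKM. Mouse 2 was lowest and mouse 4 highest for all 3 genes.

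Of the female-biased genes, 3 picked after their values were seen had the other order. Cyp2b9 had 97.86, 123.8, 55.88, 36.21 and 2.061 FPKM in mice 1 to 5, Cyp2a4 1.439, 3.688, 0.7745, 0.3894 and 0.3313 FPKM, and Hao2 2.684, 4.877, 1.068, 1.032 and 0.281 FPKM. Mouse 2 was highest and mouse 5 lowest for all 3. Of 12 male-biased genes with at least 1 FPKM, 11 were lowest in mouse 2 and 11 highest in mouse 4 or 5 (median range 4.31-fold), and of 15 Mup genes 15 were lowest in mouse 2 and 14 highest in mouse 4 or 5 (median range 10.3-fold). Of 6 female-biased genes, 5 were highest in mouse 2. The remaining gene, Fmo2, had the male-biased order, lowest in mouse 2 (2.826 FPKM) and highest in mouse 5 (5.147 FPKM). Over all restricted genes 349 (44.2%) were lowest in mouse 2, against 24.1% of all genes with at least 1 FPKM in liver. Highest in mouse 4 were 27.2% of the restricted genes and 20.6% of all genes at that level. These are single livers, no test was made, and many Mup genes share reads.

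**Figure D5:**
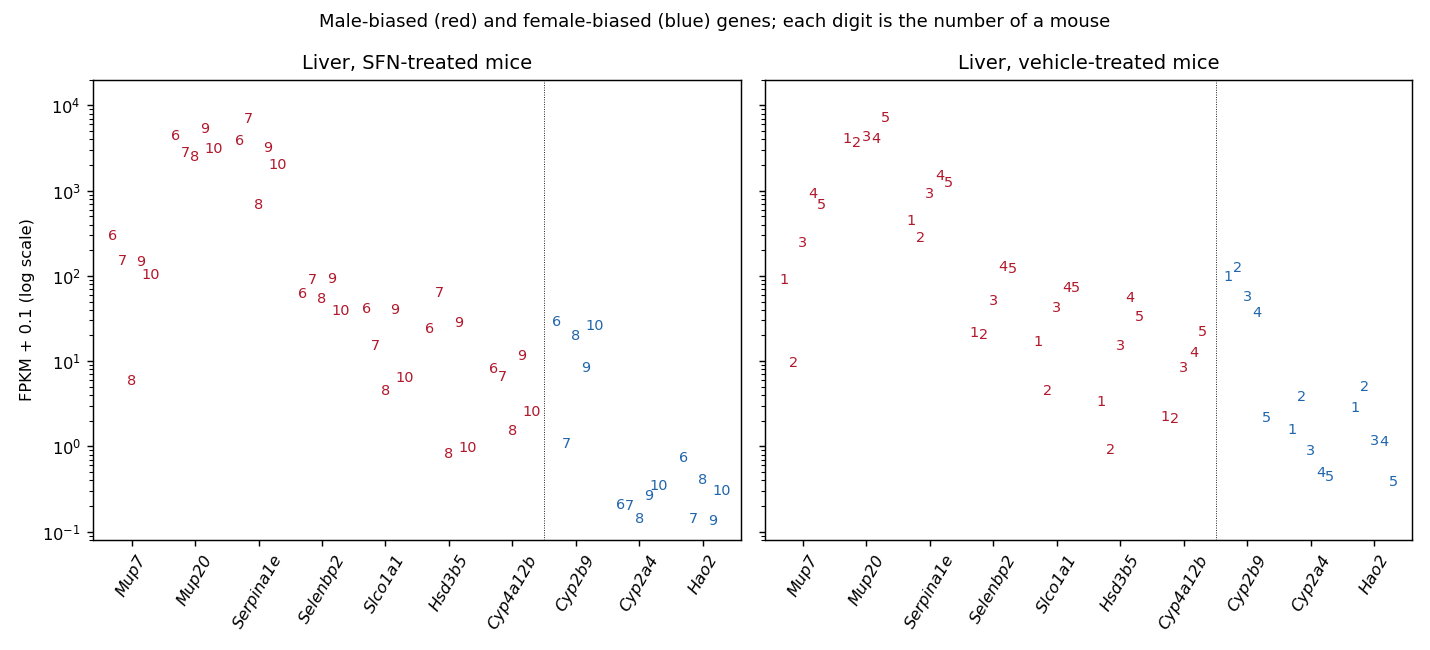
FPKM + 0.1 on a log axis in each liver, SFN-treated mice left and vehicle-treated mice right, for 7 male-biased genes (red) and 3 female-biased genes (blue); each digit is the number of a mouse. Among vehicle-treated mice, mouse 2 is lowest for most red genes (Mup7, 9.473 FPKM) and highest for the blue genes (Cyp2b9, 123.8 FPKM); among SFN-treated mice, mouse 8 is lowest for most red genes.

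The SFN-treated mice gave libraries that the rule had not used. In their 6 tissues 2636 genes (13.2%) were higher and 1964 (9.8%) lower in liver than in every other tissue by the same limma test, or 1376 and 3975 with TPM scaling. Of the 789 restricted genes 784 (99.4%) were higher in liver in SFN-treated mice, and of the 227 depleted genes 224 (98.7%) were lower. The exceptions among restricted genes were Sprr1a, Mup-ps2, Mup-ps10, Ighv1-56 and Gm28513, and among depleted genes Eef1a2, Cxcl14 and Xlr3b. The fold rule itself was met by 769 genes in SFN-treated mice, 715 of which were also in the vehicle set (93% of the SFN-treated set and 90.6% of the vehicle set). For depletion 233 genes met it, 187 of them shared (80.3% and 82.4%). Restricted genes took 42.6 to 47.7% of all FPKM in the livers of SFN-treated mice.

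Apoe was among the 74 genes that no longer met the rule in SFN-treated mice. It had 18914, 12870, 13825, 18435 and 16415 FPKM in livers of SFN-treated mice 6 to 10. In their eWAT it had 3135, 2492, 2494, 2979 and 3833 FPKM, a mean of 2987 FPKM against 1597 FPKM in eWAT of vehicle-treated mice. The liver-minus-eWAT difference changed by -1.19 (log2, adjusted p = 0.000622, limma interaction). Over all genes this change passed the test in 6.06% of those tested (578 up and 637 down), and among the restricted genes in 166 (21%), 61 up and 105 down. The vehicle levels that chose the members also enter this change, so nothing further is read from the share. Of these 166 members, 33 had no read in any of the 50 libraries of other tissues, so that their change is the one within liver. Of the 33, 15 did not pass the test within liver. The interaction test took its spread over all tissues, also those where these genes were constant at 0, and the test within liver over the livers alone. For such genes the interaction call therefore rests on a spread that is too small.

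Within liver, SFN-treated and vehicle-treated mice were compared over 13388 genes, of which 922 (6.89%) were higher and 829 (6.19%) lower with SFN (limma), or 541 and 1403 with TPM scaling. Of the 789 restricted genes 92 (11.7%) were higher and 103 (13.1%) lower, with a median log2 change of -0.085 against -0.018 over all genes, and 74 and 151 with TPM scaling. Leaving out each liver in turn gave 60 to 90 higher and 52 to 141 lower members. The count moved by over 1.5 times without mouse 10 (60 higher and 56 lower) and, for genes lower, without mouse 1 (62), 3 (64), 4 (68), 5 (52), 7 (65) or 8 (66). The vehicle values that chose the members enter this contrast too.

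The 15 restricted genes with the largest rises were led by Saa2, Saa1, Orm2 and Apcs, all genes of acute phase proteins, which hepatocytes release in inflammation. Saa2, serum amyloid A2, had 4087, 7758, 7141, 4290 and 7622 FPKM in SFN-treated livers, against 102.2, 259.4, 322.2, 98.77 and 35.97 FPKM in vehicle-treated livers (log2 change 5.57, adjusted p = 0.000473, limma). Saa1 had 5953 FPKM against 282.5 FPKM on average, Orm2 1073 against 70.14 FPKM and Apcs (serum amyloid P) 1689 against 136.8 FPKM. Hpx, hemopexin, had 13124, 19823, 18820, 11323 and 19510 FPKM in SFN-treated livers, against 4347, 5120, 4678, 3595 and 3633 FPKM in vehicle-treated livers (log2 change 1.93, adjusted p = 0.000701, limma). Itih4, Fgl1 and Fgb also rose, with log2 changes of 2.35, 2.34 and 1.55. The 15 also held Mup-ps20 (log2 change 2.27), Gm15611 (2.08), Mir122 (1.98), Fam25c (1.88), Cyp2d41-ps (1.83), Cpb2 (1.69) and Serpina10 (1.48), and no test of a shared function was made. The SFN-treated and vehicle-treated livers did not overlap for Saa2 or Hpx.

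Marker levels of some other cells differed between the treatments in liver, and those of others did not. Summed bile duct markers, a sum carried by Spp1, were 210 to 1013 FPKM in SFN-treated livers and 57.6 to 151 FPKM in vehicle-treated livers. Their most abundant member, Spp1, averaged 565.8 FPKM against 81.2 FPKM (log2 change 2.68, adjusted p = 0.00694, limma). Of the 6 markers Spp1 and Sox9 rose and the other 4 did not pass. Among those 4, Epcam (log2 change -0.861) and Cldn7 (-1.018) were lower with SFN, and Krt19 (0.158) and Krt7 (0.039) changed little. In eWAT the same sum was 296 to 1189 FPKM with SFN and 39.1 to 277 FPKM with vehicle. Summed stellate cell markers were 63.5 to 109 FPKM in SFN-treated livers and 115 to 153 FPKM in vehicle-treated livers, without overlap. Of 7 tested, Reln (log2 change -0.825) and Colec11 (-0.669) fell, while Ecm1, the most abundant, averaged 51.43 FPKM against 74.79 FPKM (adjusted p = 0.0532, limma). The adipocyte sum was 23.3 to 50.3 FPKM against 38.2 to 272 FPKM, and the Kupffer cell sum 128 to 234 FPKM against 131 to 230 FPKM. The sinusoidal endothelial sum was 35.8 to 74.2 FPKM against 40.7 to 85.6 FPKM, and of its 8 markers 0 passed. Their part in the changes with SFN was not tested.

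Of the 12 restricted genes with the largest falls 7 were Mup pseudogenes, of which Mup-ps12 had a log2 change of -4.34 (adjusted p = 0.0244, limma) and Mup-ps14 one of -3.70. The other 5 were the antisense gene Gm28513 (log2 change -3.59), Gm13775 (-3.01), Gm34654 (-2.82), Gm19572 (-2.56) and Gm48884 (-2.46). Mup-ps16 had 36.42, 3.348, 1.729, 38.63 and 4.195 FPKM in SFN-treated livers, against 70.61, 74.12, 86.39, 96.38 and 85.98 FPKM in vehicle-treated livers. All 5 SFN-treated livers were below all 5 vehicle-treated livers, with mice 6 and 9 nearer to them than the other 3. Of 28 restricted Mup genes 7 pseudogenes and 1 protein-coding gene fell and 1 rose, all with the uncertainty of shared reads. Fabp1 had 6927, 1663, 2898, 6424 and 3149 FPKM in SFN-treated livers, lower than each vehicle-treated liver (log2 change -1.51, adjusted p = 0.0216, limma), with mice 6 and 9 again highest. Cyp7a1 had 23.71, 74.08, 48.15, 24.49 and 42.37 FPKM in SFN-treated livers and overlapped the vehicle-treated livers (adjusted p = 0.105, limma).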

How the data were processed

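The authors deposited FPKM values for 54532 genes in all 60 samples, aligned to GRCm38 (mm10) according to the submitters' processing notes. The sources used here do not name the aligner, the counter or the annotation release. Their tables of SFN against vehicle also hold raw counts, which the authors deposited per gene and which served here to recover reads, as well as log2 fold changes and p-values of their own comparisons, which were not used. Reads were recovered from FPKM and gene length for 98.6% of genes (within 0.01 of a whole read), and 0 of 146080 known counts differed. All columns matched a sample. Samples were grouped by tissue and treatment as labelled, 5 per group, from separate mice.

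Levels were compared with limma 3.58.1 (R 4.3.3) on log2(FPKM + 0.1), with a trend of variance on level, over the 30 vehicle libraries. A gene needed a mean of 0.5 FPKM in 1 tissue. The call took the largest of 5 p-values with Benjamini-Hochberg adjustment at 0.05. Fold changes on this scale understate low genes. Limits for genes at 0 are 3 reads over all libraries of the group and, like all counting limits here, cover counting error only. Alternatives were TPM and TMM scaling, other pseudocounts and filters, and edgeR 4.0.16 and DESeq2 1.42.0 on recovered reads. Further alternatives were separate fits per pair of tissues, each library or each mouse left out, and the mouse as a block. The fitting steps were tested on simulated data.

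Each sample carries a mouse identifier in its labels, and tissues with the same identifier were taken as from 1 animal. Of 25 correlations between the deviations of liver and of another tissue of the same mouse, 0 exceeded 0.1 (range -0.016 to 0.062).

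The members, the 34 gene lists and the tests were chosen with earlier results of these data known. Some results are not reported here. Genes named were the 15 most abundant restricted, the 10 of largest ratio, the 15 most depleted, up to 6 of the highest and up to 4 exceptions of each list, the isozymes, 3 genes inside and outside each threshold, the 5 most abundant in liver and 5 noncoding genes. Others, such as the genes that varied among mice or changed with SFN, were chosen after their values were seen. Promoters came from RefSeq (GRCm38.p6, 27025 symbols).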

Additional observations from a re-analysis of the deposited data

Results flagged for a closer look

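For 33 genes whose values are given by sample, each gene's liver libraries and those of its highest other tissue (for depleted genes, its lowest) were searched for a library far from the other 4 by Dixon's test. It found 11 of 62 groups. The usual share of about 1 in 20 by chance assumes normally distributed values. Ppp1r1a in liver and Mup7 in iWAT had a statistic of 1, which follows wherever the other 4 libraries are equal. Some genes were also named after their values were seen, so no excess is read from the count. In liver the groups found were Apoe (16246 FPKM, the lowest of the 5), Mup20 (7092 FPKM, the highest) and Oxct1 (0.698 FPKM, the lowest). Pvalb (1.219 FPKM, the highest) and Ppp1r1a (0.05277 FPKM, a single read) were also found in liver. In iWAT the groups were Eef1a2 (18.68 FPKM), Serpina1e (1.889 FPKM), Fabp1 (0.6653 FPKM), G6pc (0.1561 FPKM) and Mup7 (0.04558 FPKM), each the highest of the 5. Cyp2e1 in iWAT (43.77 FPKM) was the lowest of its 5. Fabp1 and Cyp2e1 in iWAT and Apoe in liver stood apart in mouse 2, whose iWAT library also had a lymphocyte marker sum of 260.5 FPKM, the highest of the vehicle libraries.

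The difference between liver and the highest other tissue changed with SFN (SFN minus vehicle, log2, limma interaction, adjusted p) for 9 of the 33 genes, against 6.06% of all tested genes. The acute phase genes Saa2 (5.568, 8.71e-11) and Hpx (3.323, 4.98e-05) gained. Cyp7a1 passed as well (1.06, 0.00925), but it had no read in any other tissue, so this is the same change as within liver, which did not pass there (adjusted p = 0.105, limma). The change was -3.317 for Mup-ps16 (3.64e-05), -2.6 for Fabp1 (0.0112), -2.161 for Hao2 (0.00192), -2.019 for Cyp2a4 (0.000425), -1.191 for Apoe (0.000622) and -0.76 for Cps1 (0.0229). Some of these genes were chosen because they changed with SFN in liver, so their count supports nothing. The interaction test took its spread over all tissues of both treatments, also those where a gene was near 0. Within liver alone Saa2 changed by 5.571 (adjusted p = 0.000473, limma) and Mup-ps16 by -3.317 (adjusted p = 0.0239, limma). For these 2 genes the smaller p-values above are therefore not evidence beyond the change within liver. For Cps1, liver had 263.3, 340.7, 130.7, 384.6 and 255.4 FPKM in SFN-treated mice, against 451, 351.3, 416.7, 430.9 and 493.6 FPKM in vehicle-treated mice.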

How the results depend on the processing

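The main counts were 2736 genes higher and 2073 lower in liver, 789 restricted and 227 depleted. With TMM scaling 2637 and 2164 were called, with edgeR 2566 and 2145, with DESeq2 2582 and 2161, with separate fits per pair 2641 and 1872, and with the mouse as a replicate block (a paired fit) 2751 and 2081. Leaving out 1 library, or all libraries of 1 mouse, at a time gave 2564 to 2770 genes higher and 1852 to 2121 lower. The same runs gave 778 to 799 restricted and 207 to 230 depleted genes. TPM scaling gave 1470 higher and 3716 lower, 3349 and 13708 against hypothalamus, 2773 and 13157 against iWAT, 2950 and 13126 against eWAT, 1376 and 3975 in SFN-treated mice, 541 and 1403 for SFN in liver, and 539 depleted. It reversed the direction (liver minus the highest other tissue, log2) of Scarb1 (-0.141), F7 (-0.285), C3 (-0.139), Cfb (-0.17), Igf1 (-0.205) and Fn1 (-0.4) against eWAT, Glul (-0.348) and Lgr5 (-0.217) against hypothalamus, and Gstz1 (-0.35) and Igfals (-1.124) against iWAT. A pseudocount of 1 gave 511 restricted and 49 depleted genes and 2130 changed differences with SFN. No filter gave 490 genes lower with SFN in liver. Depletion by at least 10-fold left 45 genes, and measured against the highest other tissue it took in 4576. The fold cut-offs of 5 and 20 gave 1057 and 593 restricted genes. Leaving out each liver in turn gave 523 to 1018 genes higher and 396 to 1045 lower with SFN. Leaving out each mouse with all its tissues gave 799 to 1580 changed differences. Without the 3 libraries with lymphocyte markers above 10 FPKM, an alternative chosen after seeing the data, 2747 and 2082 genes were called, 796 restricted and 231 depleted. Of single genes named, the block changed Eef1a2 against iWAT (adjusted p = 0.0635), Bckdhb against BAT (0.0523) and Angptl8 against iWAT (0.0252), and no other call. Except where construction shows it, the cause was not tested.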
